A study of Columba livia with 16 samples.

Results

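The limb-type difference in enhancer activity of the scale-footed racing homer was examined by comparing the H3K27ac peaks of its embryonic hindlimb bud with those of its forelimb bud at Hamburger-Hamilton stage 25 (HH25). The members are every peak of these lists, 18821 in the hindlimb and 16474 in the forelimb, together 35295 of the 73059 peaks of the series. Each racing homer limb was represented by 2 H3K27ac ChIP libraries and 2 input libraries, and a single combined list was available per limb. The same libraries of the Indian fantail hindlimb and forelimb, 22407 and 15357 peaks, were set beside them. The racing homer has scaled feet, the wild-type state, whereas the Indian fantail is a small-muffed, feather-footed breed that lacks a 44-kb interval of scaffold 79, so its lists are a second breed and not replicates of the racing homer. All embryos were of domestic rock pigeon, and the labels give neither the number of embryos per library nor their sex.

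H3K27ac is an acetylation mark of histone H3 found at active promoters and enhancers. Wing and leg buds share most of their outgrowth and patterning machinery, and a few transcription factors set them apart: *Pitx1*, a homeobox gene expressed in the vertebrate hindlimb, and *Tbx5*, a T-box gene expressed in the forelimb and needed there for limb outgrowth. In mammalian cells, unusually long stretches of H3K27ac are known from the surroundings of genes that define the identity of a cell type. The sources used here place *Pitx1* and *H2afy*, which encodes a variant of histone H2A, on scaffold 79, and *Tbx5* and its paralog *Tbx3* on scaffold 70. For the other scaffolds named below no gene is given, since the genome build of the lists is not given in the sources used here and no annotation of it was used. Positions are those of the lists, counted from 1.

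The lists hold a position and a score for each peak and no read counts, so depth is unknown and no value has an error between replicates. A score ranks peaks within a list only. It starts at 50 in the hindlimb list and 50.01 in the forelimb list, has a median of 123 and 121, and is exactly 3100 for 85 hindlimb and 90 forelimb peaks, so many of the strongest peaks are tied. The intervals given with shares are 95% Wilson intervals. They cover counting error only and treat neighbouring peaks as independent, which they are not. A limb bud holds mesenchyme and ectoderm, and fewer acetylated cells cannot be told apart from weaker acetylation per cell. A peak counts as limb-only when no peak of the other limb overlaps it by 1 bp or more. A peak missing from a list was not called there, which does not show that the tissue lacks the mark.

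The limb labels were checked against the genes that define the limbs. On scaffold 79, in the window that holds *Pitx1*, from the interval missing in the Indian fantail to 7 Mb, the longest hindlimb peak ran from 6978327 to 6999257 with a score of 3100, and no forelimb peak lay within 56691 bp of it. Around *Tbx5*, in the 0.64–0.76 Mb window of scaffold 70, the hindlimb list had 0 peaks and the forelimb list had 10, of which 4 had a score of 3100. Elsewhere in the *Pitx1* window the forelimb list did have peaks, 8 in all covering 14.5 kb, against 54.4 kb in the hindlimb list. By covered length in these 2 windows, each list exceeded the other where its label calls for it.

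Most acetylated regions were common to both limbs, and the hindlimb had more peaks of its own. Of the hindlimb peaks, 6030 were limb-only (32.0%, 31.4–32.7%), and of the forelimb peaks, 3293 were limb-only (20.0%, 19.4–20.6%). In the Indian fantail the shares were 41.9% of hindlimb peaks and 12.6% of forelimb peaks. The hindlimb list is also the longer list in both breeds. When the hindlimb list was cut to the 16474 peaks with the highest score, the length of the forelimb list, the limb-only shares were 26.7% in the hindlimb and 23.9% in the forelimb, so the gap between the limbs was smaller in lists of equal length. No replicate values were available, and the difference between the shares was not tested.

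By length, hindlimb peaks covered 38.5 Mb and forelimb peaks 31.5 Mb, a ratio of 1.22, against 1.46 in the Indian fantail. Both limbs together covered 45.2 Mb, of which 24.8 Mb, or 54.9%, was acetylated in both. The hindlimb had 13.6 Mb outside forelimb peaks, 35.5% of its covered length, and the forelimb had 6.70 Mb outside hindlimb peaks, 21.3% of its own. Limb-only length did not lie only in limb-only peaks. In the hindlimb, 8.22 Mb lay in limb-only peaks and 5.42 Mb at the flanks or in the gaps of peaks that a forelimb peak overlaps. In the forelimb these lengths were 4.35 Mb and 2.35 Mb.

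Limb-only peaks were narrower and scored lower than shared peaks in both limbs. The median hindlimb-only peak was 1246 bp wide with a score of 73.6, against 1873 bp and 180 for the hindlimb peaks shared with the forelimb. Forelimb-only peaks had a median of 1184 bp and a score of 69.9, against 1622 bp and 148 for shared forelimb peaks. Widths of 5 kb or more were reached by 11 hindlimb-only peaks (0.182%), compared with 880 shared hindlimb peaks (6.88%), and by 16 forelimb-only peaks (0.486%), compared with 647 shared forelimb peaks (4.91%). The median limb-only peak lay at percentile 24.6 of the scores of the hindlimb list and at percentile 22.1 of those of the forelimb list. Under the 1 bp rule a wide peak has more room to count as shared. The part of the rule in these differences was not tested.

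Ordered by score, the limb-only share fell steeply and then turned up among the strongest peaks. Below the 10th percentile of score it was 69.4% in the hindlimb and 50.0% in the forelimb. Between the 90th and the 99th percentile it was 0.118% in the hindlimb (2 of 1694 peaks, 0.0324–0.429%) and 0.337% in the forelimb (5 of 1482 peaks, 0.144–0.787%). In the top 1% it was 3.19% in the hindlimb (6 of 188 peaks, 1.47–6.79%) and 3.64% in the forelimb (6 of 165 peaks, 1.68–7.71%). The top 1% of each list thus held a higher share of limb-only peaks than the peaks just below it, although these are few peaks and some are neighbours. The 6 hindlimb-only peaks with a score of 2000 or more lie on 4 scaffolds, and the 8 such forelimb-only peaks also lie on 4.

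**Figure D1:**
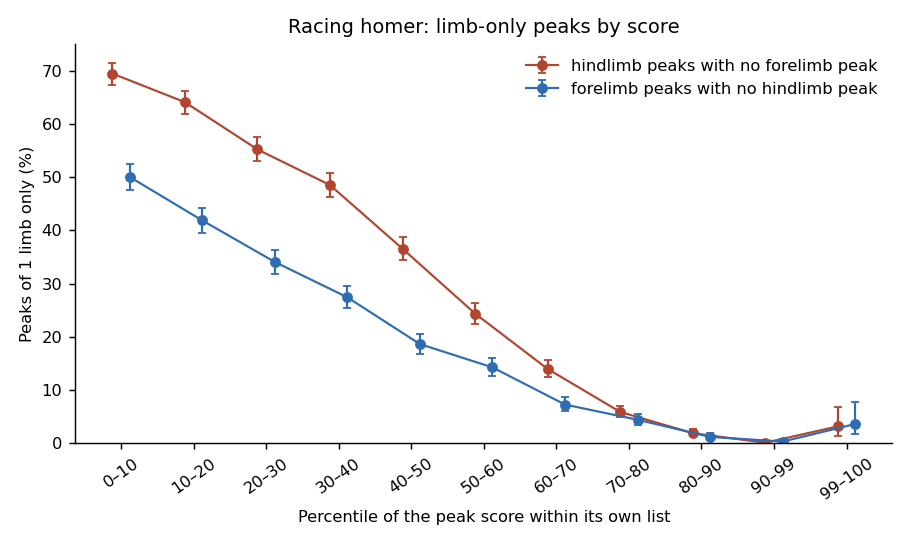
Share of racing homer peaks of 1 limb only (y axis, %) by the percentile of the score within the list (x axis), for hindlimb peaks (red) and forelimb peaks (blue). Bars are 95% Wilson intervals; the share drops from 69.4% in the hindlimb and 50.0% in the forelimb at the lowest scores to 0.118% and 0.337% between the 90th and 99th percentile, and is 3.19% and 3.64% in the top 1%.

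The strongest hindlimb-only peaks formed a small group. The highest 8 were a peak of 29130 bp on scaffold 580 from 154608 to 183737, the *Pitx1*-window peak of 20931 bp on scaffold 79 and, beside it, a narrow peak of 586 bp from 6977565 to 6978150, a pair of 6552 and 18183 bp on scaffold 265, and 3 of 17046, 7312 and 6856 bp on scaffold 922. Their scores were 3100 on scaffold 580, 3100 and 822 on scaffold 79, 3100 and 2984 on scaffold 265, and 1730, 2242 and 2274 on scaffold 922. The next hindlimb-only peak scored 531, a peak of 10291 bp on scaffold 836 from 164487 to 174777. All of the 8 were overlapped by an Indian fantail hindlimb peak and none by an Indian fantail forelimb peak (0 of 8). Those on scaffolds 79, 265 and 922 are close neighbours, so the 8 are not independent and no interval is given in the text. The peak on scaffold 836, in contrast, lay entirely under peaks of both Indian fantail limbs.

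The strongest forelimb-only peaks were likewise few. They were 4 peaks of 9407, 15256, 18717 and 11705 bp around *Tbx5*, each with a score of 3100, a peak of 6425 bp on scaffold 893 from 628756 to 635180 with a score of 2709, a pair of 7684 and 7809 bp on scaffold 538 with scores of 2461 and 2098, and a peak of 7657 bp on scaffold 38 from 15678994 to 15686650 with a score of 2244. The next forelimb-only peak scored 737, on scaffold 7 from 10353948 to 10357390. An Indian fantail forelimb peak overlapped every forelimb-only peak in the top 10% of scores (11 of 11), and an Indian fantail hindlimb peak overlapped 7 of them.

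**Figure D2:**
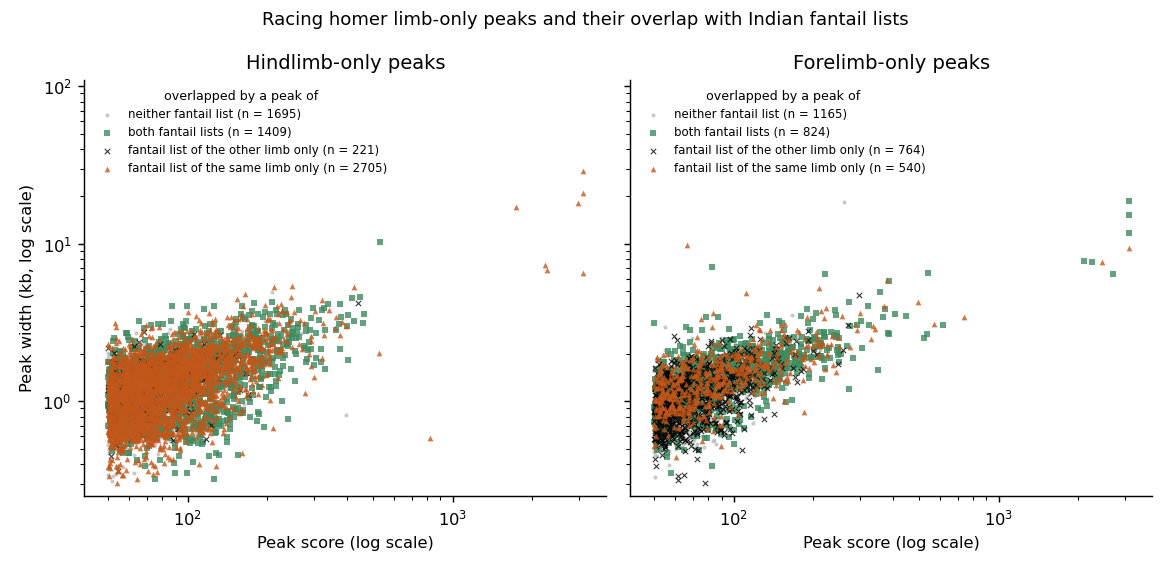
Width (y axis, kb) against score (x axis) of every racing homer hindlimb-only peak (left) and forelimb-only peak (right), both axes on a log scale; each point is a peak, and the symbol gives which Indian fantail lists overlap it. Most points lie below a score of 300 and a width of 3 kb, and a separate group at the upper right holds 7 hindlimb-only and 8 forelimb-only peaks with scores above 1000; the isolated grey point of 18400 bp in the right panel is a peak on scaffold 538 that no Indian fantail peak overlaps.

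The Indian fantail lists are a measure that did not choose these peaks. Of the hindlimb-only peaks, 4114 lay over an Indian fantail hindlimb peak (68.2%, 67.0–69.4%) and 1630 over an Indian fantail forelimb peak (27.03%, 25.9–28.2%). Split by both lists, 44.9% lay over an Indian fantail hindlimb peak alone, 3.67% over a forelimb peak alone, 23.4% over both and 28.1% over neither. Hindlimb-only acetylation of the racing homer was thus found more often in the same limb of the second breed than in the other limb, by 41.2 percentage points. This difference kept its direction under each alternative tried and was lowest, at 18.0 points, when the Indian fantail lists alone were cut to equal size, an alternative chosen after seeing the data.

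Forelimb-only peaks gave a different picture. Over an Indian fantail hindlimb peak lay 1588 of them (48.2%, 46.5–49.9%) and over an Indian fantail forelimb peak 1364 (41.4%, 39.7–43.1%). Of the same peaks, 23.2% lay over a hindlimb peak alone, 16.4% over a forelimb peak alone, 25.0% over both and 35.4% over neither. The Indian fantail hindlimb list is 1.46 times longer in covered length than the forelimb list, and the direction changed under 4 alternatives, 2 of them in the length of the lists. With all lists of each breed cut to equal size the shares were 30.4% over a hindlimb peak and 43.7% over a forelimb peak, and with the Indian fantail lists alone cut they were 25.8% and 41.4%. The direction also changed at full list length, to 31.4% and 36.1% when peaks had to overlap by 50% of both, and to 63.0% and 81.7% for forelimb-only peaks at or above the median score set against the whole hindlimb list. Peaks shared between the racing homer limbs lay over Indian fantail peaks much more often, at 94.8% for the hindlimb list and 84.2% for the forelimb list among shared hindlimb peaks, and 94.8% and 84.0% among shared forelimb peaks.

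The overlap with the same limb of the second breed was higher in each higher class of score. From the lower 50% of scores through the 50–75, 75–90 and 90–100 percentile classes, hindlimb-only peaks lay over an Indian fantail hindlimb peak in 64.2%, 91.8%, 94.5% and 100% of cases. Over an Indian fantail forelimb peak they lay in 23.9%, 44.2%, 64.4% and 0% of cases, the last class being the 8 peaks named above. For forelimb-only peaks the shares over an Indian fantail hindlimb peak were 45.8%, 62.2%, 69.8% and 63.6%, and over an Indian fantail forelimb peak 34.9%, 80.2%, 90.7% and 100%. In the lower 50% of scores, forelimb-only peaks lay more often over the other limb of the second breed, and in each class above it more often over the same limb. Up to the 75–90 class, the share over the other limb also rose with score for limb-only peaks of both limbs. Shared peaks were not split by score class, so the rise is not shown to be particular to limb-only peaks.

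**Figure D3:**
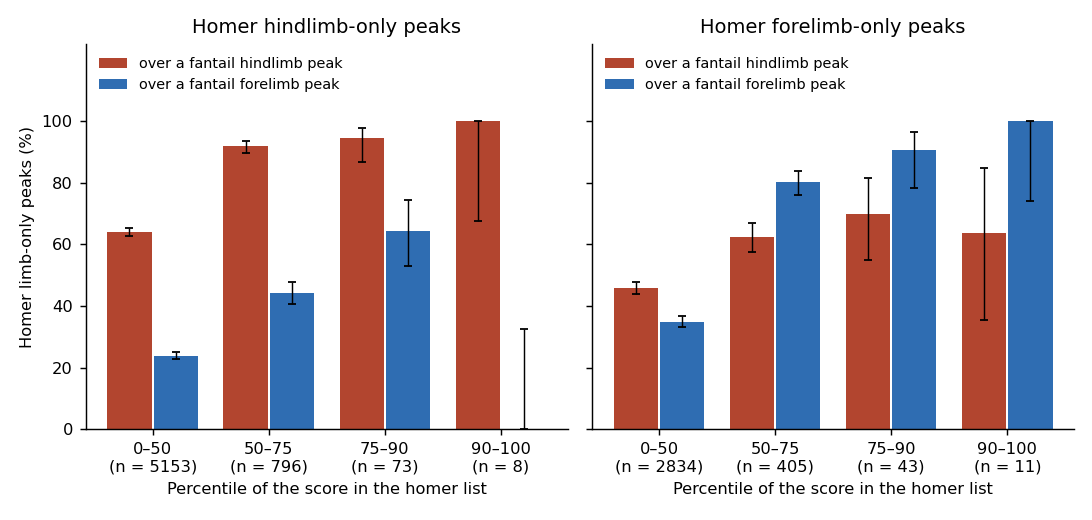
Share of racing homer limb-only peaks (y axis, %) that lie over an Indian fantail hindlimb peak (red) or forelimb peak (blue), by score percentile in the racing homer list (x axis, number of limb-only peaks in brackets). Bars start at 0 and the lines are 95% Wilson intervals. In the 90–100 class the 8 hindlimb-only and 11 forelimb-only peaks include close neighbours that are not independent, so the lines of that class are too narrow. Hindlimb-only peaks (left) lie more often over hindlimb peaks in every class, and forelimb-only peaks (right) do so over forelimb peaks only above the lower 50% of scores.

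Limb-only status itself was shared by fewer peaks. Of the racing homer hindlimb-only peaks, 2598 (43.1%, 41.8–44.3%) lay over an Indian fantail peak that was also hindlimb-only, and these are 27.4% of the Indian fantail hindlimb-only peaks when counted from that side. Of the racing homer forelimb-only peaks, 514 (15.6%, 14.4–16.9%) lay over an Indian fantail forelimb-only peak, 26.2% counted from the Indian fantail side. Forelimb-only peaks that were so in both breeds had a median width of 1441 bp, against 1143 bp for the rest, and the corresponding hindlimb widths were 1266 and 1231 bp.

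In the racing homer lists, shared regions were also wider in the hindlimb. In 11234 places, 1 hindlimb peak overlapped 1 forelimb peak and no other. The hindlimb peak was the wider in 7571 of these pairs (67.4%), with a median ratio of hindlimb to forelimb width of 1.09 (quartiles 0.96 and 1.31). It was at least 2 times wider in 553 pairs, and the forelimb peak at least 2 times wider in 118. Across pairs, widths had a Spearman correlation of 0.84 and scores of 0.72, given as a description because genome positions share base composition and mappability. Limb differences in width at shared regions were thus mostly small. The whole racing homer lists differed in the same direction, with a median width of 1596 bp in the hindlimb and 1486 bp in the forelimb. In the Indian fantail the forelimb list was the wider, at 1703 bp against 1644 bp. The part of these list-wide widths in the pair ratios was not tested.

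A few shared regions were very unequal. The largest ratio was on scaffold 578, where a hindlimb peak of 4099 bp from 863712 to 867810 met a forelimb peak of 752 bp from 867078 to 867829. The Indian fantail was less unequal there, with 3347 bp in the hindlimb and 2782 bp in the forelimb. In the other direction, a hindlimb peak of 1240 bp from 832042 to 833281 on scaffold 538 lay under a forelimb peak of 6014 bp from 827220 to 833233, and no Indian fantail hindlimb peak overlapped the place while forelimb peaks covered 4312 bp. On scaffold 893, a hindlimb peak of 2269 bp lay inside a forelimb peak of 8287 bp. Over that place the Indian fantail had 6226 bp in the hindlimb and 8287 bp in the forelimb. Such regions count as shared although most of their acetylated length in the racing homer was found in 1 limb.

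Some hindlimb peaks spanned several forelimb peaks, which happened 810 times, and some forelimb peaks spanned several hindlimb peaks, 457 times. The most peaks under a single peak of the other limb were 4, in both directions. A hindlimb peak on scaffold 190 from 1095390 to 1109165 lay over 4 forelimb peaks that filled 12431 of its 13776 bp, and a forelimb peak on scaffold 836 from 390652 to 402164 lay over 4 hindlimb peaks that filled 8858 of its 11513 bp.

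Limb-only peaks tended to follow each other along the scaffolds. The peak after a hindlimb-only peak on the scaffold was again hindlimb-only in 37.1% of cases, compared with 29.5% after a shared hindlimb peak. After a forelimb-only peak the next was forelimb-only in 26.7% of cases, compared with 18.2% after a shared forelimb peak. Even so, the next peak was a shared one in most cases. The median distance of a hindlimb-only peak to the nearest forelimb peak was 11106 bp, and that of a forelimb-only peak to the nearest hindlimb peak was 8284 bp. Within 1 kb of a peak of the other limb lay 14.1% of hindlimb-only and 15.9% of forelimb-only peaks, and more than 50 kb away lay 19.4% and 15.8%.

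With both lists merged, 21631 regions resulted, 6030 with hindlimb peaks only, 3293 with forelimb peaks only and 12308 with both. Consecutive hindlimb-only regions formed 420 runs of 3 or more and 56 of 5 or more, and forelimb-only regions 124 and 5. The longest hindlimb-only runs had 9 regions. One lay on scaffold 79 from 6881461 to 7051863, through the *Pitx1* window and beyond it, with 36.5 kb of acetylated length and scores from 66.2 to 3100, and the other on scaffold 36 from 1557355 to 2126740, with 10.98 kb spread over 569 kb and no score above 153. In the *Pitx1* run the Indian fantail had 12 hindlimb peaks covering 38.8 kb and 1 forelimb peak covering 3.21 kb.

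The longest forelimb-only run had 14 regions and lay on scaffold 70 from 523637 to 768627, a span of 245 kb with 70.2 kb of acetylated length that includes the *Tbx5* window. No hindlimb peak of the racing homer interrupted it. The Indian fantail had 8 hindlimb peaks covering 17.2 kb there and 10 forelimb peaks covering 70.6 kb. The next forelimb-only run had 6 regions, on scaffold 265 from 1553166 to 1581448. The length of 14 depended on weak or near neighbours. When regions up to 1 kb apart were joined into 1 region, the longest forelimb-only run had 8 regions. With scores of at least 100 it had 7. Joining lowers the count of regions and does not by itself make them shared.

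Stitching neighbouring limb-only peaks of a limb gave 4970 hindlimb-only domains with a median of 1338 bp and 2835 forelimb-only domains with a median of 1225 bp of limb-only length. Domains with 10 kb or more were rare, 7 in the hindlimb and 10 in the forelimb. With 20 kb or more there were 4 in the hindlimb and 1 in the forelimb. The 4 longest hindlimb-only domains stayed among the 5 longest under the alternatives run for domains, and the longest domain of each limb stayed on its scaffold. These alternatives were a peak within 1 kb counted as shared, scores of at least 100, scores at or above the median of the list, and stitching distances of 5 and 25 kb. Of the 4 longest forelimb-only domains, 3 stayed among the 5 longest with the 1 kb rule and with each score rule. All 4 stayed with each stitching distance.

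The longest hindlimb-only domain was on scaffold 580 from 147706 to 199382, where 6 peaks covered 48.0 kb. Its central peak of 29130 bp was the second widest of the hindlimb list, and the others scored between 66.7 and 424. The Indian fantail had 5 hindlimb peaks over the domain, covering 49.0 kb, and 0 forelimb peaks. At 13477 bp from the central peak, acetylation of the forelimb resumed, and shared peaks flanked the domain on both sides.

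Scaffold 922 held the next one, from 164252 to 198437, with 4 hindlimb peaks that covered 33.8 kb almost without a gap. The Indian fantail hindlimb covered 33.9 kb of it with 3 peaks and the Indian fantail forelimb none. Beyond the end of this domain lay peaks of both limbs. After 29.6 kb began a domain of the opposite kind, from 228015 to 273669, in which 9 forelimb-only peaks covered 13.3 kb. Shared peaks were interspersed there too. The racing homer had 4 hindlimb peaks covering 4.07 kb and 12 forelimb peaks covering 19.3 kb in its span. In that forelimb domain the Indian fantail had 10.7 kb of hindlimb and 21.3 kb of forelimb acetylation.

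The domain of the *Pitx1* window on scaffold 79 ran from 6976093 to 7006754, with 5 peaks covering 27.6 kb. Its scores were 220, 822, 3100, 525 and 375. The Indian fantail hindlimb covered 25.8 kb of it with 6 peaks, and the Indian fantail forelimb had 0. How the long peak lies relative to the transcribed part of *Pitx1* is not known here.

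On scaffold 265, another domain ran from 1498948 to 1538670, with 4 hindlimb peaks covering 27.5 kb, of which the last 2 were weak, with scores of 51.0 and 58.2. The Indian fantail hindlimb covered 28.8 kb and the forelimb none. Only 14.5 kb beyond its end began the forelimb-only run of 6 regions named above, which covered 7.75 kb with a top score of 104. Opposed domains of at least 5 kb within 100 kb of each other were found 4 times, on scaffolds 265, 68, 922 and 893, among 94 hindlimb-only and 49 forelimb-only domains of that size.

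**Figure D4:**
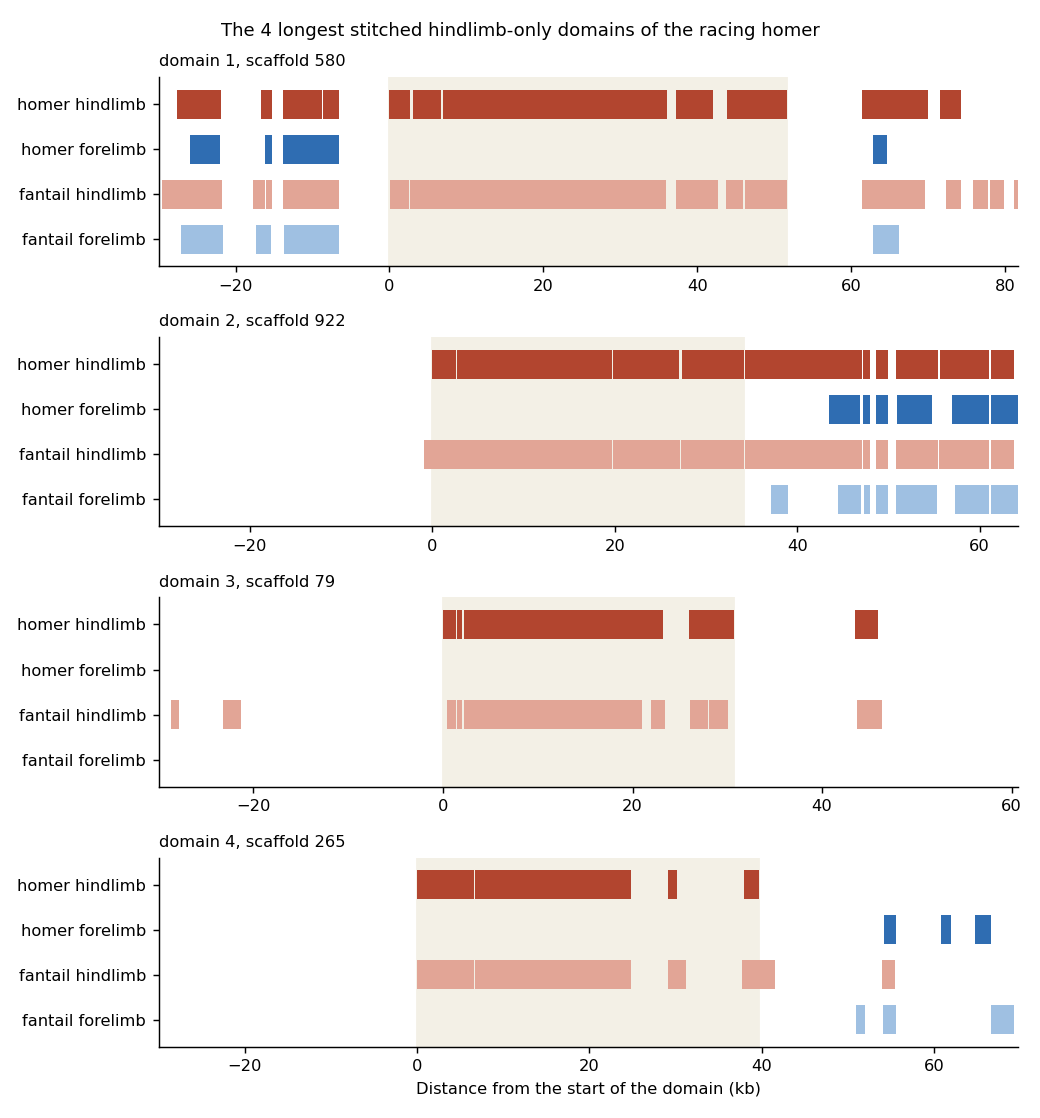
The 4 longest stitched hindlimb-only domains of the racing homer with their flanks. Each row shows the peaks of a list as blocks, placed by distance from the start of the domain (x axis, kb), and shading marks the domain; within the shading both hindlimb rows are filled for most of the length (48.0, 33.8, 27.6 and 27.5 kb in the racing homer) and both forelimb rows are empty.

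The next domain lay at the interval of scaffold 79 that the Indian fantail lacks, from 6734166 to 6770821, with 6 hindlimb-only peaks covering 15.3 kb and scores up to 269. Unlike the 4 above, it was interspersed with 3 hindlimb peaks that had a forelimb counterpart. Within the interval itself, where hindlimb peaks lay from 6721947 to 6761539, 5 of the 9 hindlimb peaks were limb-only and 0 of the 4 forelimb peaks. In the whole lists, 32.0% of hindlimb and 20.0% of forelimb peaks were limb-only, and the counts of the interval are small. The 4 hindlimb peaks with a counterpart were each wider than it, at 6174, 4359, 2820 and 7682 bp in the hindlimb against 2721, 1097, 1026 and 5247 bp in the forelimb, and each forelimb peak lay wholly inside its hindlimb peak. Acetylation of the interval was therefore found in both limbs and was longer in the hindlimb, at 35.3 kb against 10.1 kb. Since the Indian fantail lacks this sequence, its lists give no measure of the limb difference there.

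In the *Pitx1* window, from the interval to 7 Mb, hindlimb peaks covered 54.4 kb and forelimb peaks 14.5 kb. Single places differed to unequal degrees. Limb-only were 8 of the 15 hindlimb peaks and 1 of the 8 forelimb peaks, compared with 32.0% and 20.0% in the whole lists. The hindlimb count includes peaks of the long domain described above. The strongest forelimb peak of the window, of 4354 bp from 6787524 to 6791877 with a score of 565, had a hindlimb counterpart of 4665 bp. Further along, hindlimb peaks of 2888 and 3951 bp lay over forelimb peaks of 1390 and 1517 bp. A hindlimb-only peak of 4598 bp from 6832805 to 6837402 had a score of 449. The Indian fantail hindlimb covered 4311 bp of that peak and the Indian fantail forelimb 1312 bp.

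The longest limb-only domain of either limb was the forelimb domain of the *Tbx5* window, from 671298 to 746888 on scaffold 70. The racing homer hindlimb had 0 peaks in it, and 10 forelimb peaks covered 66.0 kb. The nearest hindlimb peak to the 4 strongest forelimb peaks was between 40591 and 90131 bp away. In the Indian fantail the hindlimb covered 13.2 kb and the forelimb 69.1 kb, so this was a region of racing homer forelimb-only acetylation in which the second breed had peaks in both limbs.

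The neighbouring *Tbx3* window, from 0.76 to 0.8 Mb, differed much less. All 8 hindlimb peaks there had a forelimb counterpart, and 8 of the 9 forelimb peaks had a hindlimb counterpart. The peak from 799659 to 806526 in the hindlimb was 6868 bp wide, and its forelimb counterpart was 6946 bp. The remaining forelimb peak, of 1682 bp from 766946 to 768627 with a score of 106, was the last region of the run of 14. A border between forelimb-only and shared acetylation thus lay between 768627 and 776707.

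Other forelimb-only domains were shorter. On scaffold 693, from 2061379 to 2079632, 4 forelimb-only peaks covered 15.0 kb, with 14.8 kb in the Indian fantail forelimb and none in either hindlimb. Of this racing homer length, 9779 bp lay in a single peak that scored only 66.5. On scaffold 538, from 806839 to 827135, 4 peaks covered 18.9 kb, with 3.29 kb of Indian fantail hindlimb and 18.7 kb of Indian fantail forelimb acetylation. On scaffold 38, from 15678994 to 15694842, 2 peaks covered 14.2 kb, but the Indian fantail had 15.7 kb in the hindlimb and 15.2 kb in the forelimb. With scores of at least 100, or at or above the median, the domains of scaffolds 693 and 38 dropped from the 5 longest. The domains of scaffolds 693 and 538 were thus forelimb-biased in both breeds and that of scaffold 38 in the racing homer alone.

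Another domain of scaffold 538, from 635967 to 661599, stood apart. Its span also held 2 racing homer hindlimb peaks covering 5.8 kb. Of its 19.1 kb of forelimb-only length, 18400 bp belonged to a single forelimb peak (635967 to 654366). That peak scored only 261 and ended 16 bp before a hindlimb peak. Neither Indian fantail list had a peak over it. With a peak within 1 kb counted as shared, this domain dropped from the 5 longest.

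In windows of 100 kb, 4847 of 6924 windows had more hindlimb length and 2075 more forelimb length. Differences of 10 kb or more were found in 73 windows in favour of the hindlimb and in 16 in favour of the forelimb. The largest hindlimb differences were 50.3 kb on scaffold 580, 36.7 kb on scaffold 922, 26.9 kb on scaffold 123 at 5.3–5.4 Mb, and 26.5 and 22.9 kb on scaffold 79 at 6.7–6.8 and 6.9–7 Mb. The last of these windows had 22.9 kb in the hindlimb and none in the forelimb, whereas the window of scaffold 123 had 61.8 kb in the hindlimb and 34.9 kb in the forelimb.

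The largest forelimb differences came from scaffolds 70 and 538. Scaffold 70 had 20.9 kb in the hindlimb and 62.4 kb in the forelimb at 0.7–0.8 Mb, and 0 kb in the hindlimb and 26.6 kb in the forelimb at 0.6–0.7 Mb. On scaffold 538 the hindlimb had 29.7 kb and the forelimb 60.9 kb at 0.8–0.9 Mb, and 33.5 kb and 54.3 kb at 0.6–0.7 Mb. In the Indian fantail, hindlimb and forelimb had 33.7 and 65.0 kb in the first scaffold 70 window and 1.22 and 27.5 kb in the other. On scaffold 538 the Indian fantail limbs were nearly equal at 0.8–0.9 Mb, with 50.0 and 51.6 kb. At 0.6–0.7 Mb of scaffold 538 the Indian fantail hindlimb had more, 34.8 kb against 28.9 kb. Of the 73 hindlimb windows, 70 also had more hindlimb length in the Indian fantail, and of the 16 forelimb windows, 14 also had more forelimb length there, although 5329 of all 6924 windows had more hindlimb length in the Indian fantail.

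Among the 32 scaffolds with at least 200 peaks in the lists together, the hindlimb-only share ranged from 12.9% to 40.9% with a median of 31.7%, and the forelimb-only share from 11.5% to 29.2% with a median of 20.8%. On scaffold 79 they were 39.2% (122 of 311 hindlimb peaks) and 14.6% (35 of 240 forelimb peaks). Scaffolds with peaks of a single limb held few of them: 46 scaffolds held hindlimb peaks only, 56 peaks in all, and 34 held forelimb peaks only, 36 in all. Limb-only peaks were therefore spread over the genome, and the long domains held little of their length, 1.66% for the 4 longest in the hindlimb and 2.73% for the 4 longest in the forelimb.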

How the data were processed

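H3K27ac ChIP and input libraries of HH25 limb buds were sequenced as single-end 50-bp reads, 16 libraries in all, and the authors deposited a peak list for each breed and limb, in which replicates are not kept apart. The deposited score of a peak was at least 50, has no stated scale and was compared only within a list. The submitters' processing notes name CASAVA, Bowtie2 2.2.3, SAMtools, MACS 1.4.2 and MACS2 2.0.10.20130915, without saying which made the lists; how replicates were combined and the genome build are not given in the sources used here. The authors' tables of hindlimb regions differing between breeds, with log10 likelihood ratios, were not used.

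Groups follow the breed and limb in the sample titles. Peaks were shared when they overlapped by 1 bp or more. Limb-only peaks up to 12.5 kb apart were stitched, and windows were of 100 kb. Shares carry 95% Wilson intervals. Read depth is unknown, and no test across replicates or leaving out of a replicate was possible, so results are descriptions. Named peaks were drawn from the 10 widest and 5 highest-scoring limb-only peaks, the 5 longest domains and runs and the 5 most unequal windows of each limb. Peaks of the *Pitx1*, *Tbx5* and *Tbx3* windows were added. Not every member of these sets is described, and which are described was decided after their values were seen. Other named peaks were also chosen after their values were seen. The members, lists and rules were chosen with earlier results of these data known. A planned list of limb genes could not be placed on this build and was not used. Alternatives in overlap, score, list size, width, stitching distance and windows were run. Calculations used Python 3.11.15, numpy 2.4.6, scipy 1.17.1 and matplotlib 3.10.9. On simulated and small constructed lists, 15 of 15 checks gave the known answer or matched a direct recomputation.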

Additional observations from a re-analysis of the deposited data

Results flagged for a closer look

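In 2 sets of merged regions, peaks were called in opposite limbs in the breeds. The difference between breeds was not tested, because no replicate values were available. In 202 regions the racing homer had a hindlimb peak only and the Indian fantail a forelimb peak only. In 696 regions the racing homer had a forelimb peak only and the Indian fantail a hindlimb peak only. Counted by peaks, 3.67% of hindlimb-only peaks lay over an Indian fantail forelimb peak alone, against 2.45% of shared hindlimb peaks. For the same limb alone, the shares were 44.9% of hindlimb-only peaks, against 13.1% of shared hindlimb peaks. Over an Indian fantail forelimb peak alone lay 16.4% of forelimb-only peaks, against 2.39% of shared forelimb peaks. Over an Indian fantail hindlimb peak alone lay 23.2% of forelimb-only peaks, against 13.3% of shared forelimb peaks. Of these 764 forelimb-only peaks, 720 were in the lower 50% of scores, as were 2834 of all 3293 forelimb-only peaks. Peaks of the same limb alone were called in both breeds in 2464 hindlimb-only and 469 forelimb-only regions. Opposite regions thus outnumbered those of the same direction only for racing homer forelimb peaks. The first set was led by a region of scaffold 7 from 10358702 to 10381961, with a hindlimb peak of 4212 bp and a score of 441 in the racing homer and a forelimb peak of 22991 bp and a score of 124 in the Indian fantail. The second was led by regions on scaffold 113 from 1310504 to 1312640 and on scaffold 314 from 2842542 to 2846412, with racing homer forelimb scores of 247 and 190 and Indian fantail hindlimb scores of 212 and 256. Scores rank peaks within their own list only, and the part of list length in these counts was not tested.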

How the results depend on the processing

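No paired analysis was possible because each deposited list combines its replicates, so the results are counts with no error between replicates, and no replicate could be left out. Of 86 values under an alternative, 48 stayed close to the main value, 34 moved and 4 reversed; the cause was not tested. Close means within the 95% interval for shares of peaks, within the summed half-widths of both intervals for differences of shares, and within a factor of 1.5 for widths, lengths, covered shares, runs, ranks and counts of regions. The rules on overlap between peaks give no value for covered length, which is counted per base. When peaks had to overlap by 50% of both, the limb-only share was 40.3% in the hindlimb and 31.8% in the forelimb, and with a peak within 1 kb counted as shared 27.5% and 16.8%. With peaks at or above the median score, the hindlimb-only share was 30.8%, and it was 35.4% among peaks of at least 1 kb. The forelimb-only share was 18.6% with scores of at least 100. Lists of equal size gave 26.7% and 23.9%. Peaks at or above the median score set against the whole list of the other limb gave 9.32% and 5.57%, with limb-only covered length of 23.1% and 12.4% and median widths of 1904 bp in the hindlimb and 1941 bp in the forelimb; forelimb-only peaks at or above the median score had a median width of 1917 bp.

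The share of hindlimb-only peaks over an Indian fantail hindlimb peak minus that over a forelimb peak, 41.2 percentage points, was 30.9 with 50% overlap, 49.6 with scores of at least 100, 47.3 at or above the median score, 46.6 for these against the whole list, 21.3 with lists of equal size, 38.3 among peaks of at least 1 kb and 18.0 with the Indian fantail lists alone cut, chosen after seeing the data. For forelimb-only peaks, the share over a forelimb peak minus that over a hindlimb peak, -6.80, reversed to 4.71 with 50% overlap, 18.7 for peaks at or above the median score against the whole list, 13.3 with lists of equal size and 15.6 with the Indian fantail lists alone cut, and was -2.38 at or above the median score and -0.65 among peaks of at least 1 kb. The longest forelimb-only run was 8 regions when regions up to 1 kb apart were joined, 7 with scores of at least 100 and 8 at or above the median score. Opposite between breeds were 491 racing homer hindlimb peaks with 50% overlap, counted over limb-only peaks and not merged regions, against 221 by the same count with 1 bp. Merged regions numbered 81 with scores of at least 100 and 80 at or above the median score for racing homer hindlimb peaks, and 390 and 321 under the same rules for racing homer forelimb peaks. The 100-kb window that holds the longest hindlimb-only peak near *Pitx1* ranked 3 by hindlimb minus forelimb length with windows shifted by 50 kb, in place of 5. It was picked by that peak, so a high rank was built into the choice.

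Read depth is unknown, and most limb-only peaks have low scores, where a peak of the other limb just under the limit of calling cannot be seen.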

Other observations

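On scaffold 893, 2 of the 8 windows with the largest forelimb excess lay near each other. At 0.6–0.7 Mb the racing homer had 39.9 kb in the hindlimb and 54.8 kb in the forelimb, and the Indian fantail 27.4 kb and 50.9 kb. At 0.3–0.4 Mb the racing homer had 3.57 kb in the hindlimb and 18.1 kb in the forelimb, and the Indian fantail 4.35 kb and 30.2 kb. On scaffold 642 from 1975912 to 2011653, 6 hindlimb-only peaks of the racing homer covered 12.2 kb with scores up to 177. With shared peaks included, the racing homer had 17.6 kb of hindlimb and 2.87 kb of forelimb acetylation there. The Indian fantail had 20.6 kb and 2.82 kb. On scaffold 543 from 328283 to 372859, 7 forelimb-only peaks of the racing homer covered 11.6 kb. With shared peaks included, the racing homer had 4.16 kb of hindlimb and 16.0 kb of forelimb acetylation there. The Indian fantail had 9.17 kb of hindlimb and 6.45 kb of forelimb acetylation. These values are descriptions, and no gene is given for these scaffolds in the sources used here.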
